A study of Mus musculus with 6 samples.

Results

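The Ly6 surface antigens described here are 6 genes of 1 family on mouse chromosome 15: Ly6a, Ly6c1, Ly6c2, Ly6d, Ly6e and Ly6k. They were chosen by name, with their FPKM values in the same Vector and Limch1_OE libraries already known. Of the 6, 4 are among the 26094 genes with a transcript in the table used here, and 3 of these passed the filter on low values given below. Identifiers of the table were matched to symbols of the mm10 annotation and the transcripts of each gene were summed. The values come from 4T1, a cell line from a mouse mammary carcinoma. In the Vector group (n = 3 libraries) the cells were infected with lentivirus of the empty vector PLVX-ires-neo, and in the Limch1_OE group (n = 3 libraries) with the same vector carrying mouse Limch1, an actin-associated protein with a LIM domain. Virus for both groups was packaged in HEK293T cells and stable lines were selected with antibiotic, so the control cells had also met a lentivirus. No uninfected cells were analysed here, and nothing in the labels says whether the libraries of a group are separate infections or repeats of 1 line. All p-values below therefore judge the difference between the groups only against the spread of these libraries within a group. That spread may be technical.

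Ly6 proteins are small, cysteine-rich proteins that fold into a compact 3-fingered domain and are held on the outer face of the cell membrane by a glycosylphosphatidylinositol (GPI) lipid anchor. Many of their genes sit side by side in 1 cluster on chromosome 15. Ly6a encodes Sca-1, a marker of blood stem cells that also marks progenitor-like cells in mammary tissue and tumours. Ly6e encodes a protein that restricts entry of some viruses, and both Ly6a and Ly6e are known to be induced by interferon. The Ly6C proteins of Ly6c1 and Ly6c2 mark monocytes and, for Ly6c1, endothelium. Ly6d marks stages of the lymphoid lineage and epithelial cells, and Ly6k is expressed mainly in testis.

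The near identity of some members limits how far their values can be told apart, so the start of the coding sequence is shown for the 3 most alike. Each line gives the first 120 coding bases, 5′ to 3′, from the GENCODE M21 transcripts Ly6a-201, Ly6c1-201 and Ly6c2-201. All 3 genes are on the minus strand of GRCm38, with the first coding base at 74997604 for Ly6a, 75048511 for Ly6c1 and 75111667 for Ly6c2. Capitals mark the 12 positions at which the 3 genes are not all the same.
Ly6a: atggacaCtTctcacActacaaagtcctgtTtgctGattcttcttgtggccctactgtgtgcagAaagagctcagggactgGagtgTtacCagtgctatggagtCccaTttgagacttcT
Ly6c1: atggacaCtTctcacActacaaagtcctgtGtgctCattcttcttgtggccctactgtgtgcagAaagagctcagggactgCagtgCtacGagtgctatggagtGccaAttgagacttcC
Ly6c2: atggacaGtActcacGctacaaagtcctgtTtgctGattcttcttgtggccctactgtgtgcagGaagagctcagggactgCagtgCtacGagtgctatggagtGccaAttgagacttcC

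Within these bases Ly6c1 and Ly6c2 differed at 6 positions, and Ly6a differed from Ly6c1 at 8. Over the whole coding sequence Ly6c1 and Ly6c2 (393 bases each) were 97.7% identical with an unbroken identical run of 188 bases, whereas Ly6a (402 bases) was 81.8% identical to Ly6c1 with a longest run of 48 bases. Ly6e (408 bases) was only 54.1% identical to Ly6a, and its longest run shared with Ly6a was 8 bases. Of the 100-base windows of Ly6c1-201, 15.3% occurred unchanged in a transcript of another gene, in each case Ly6c2. None of the 720 such windows of Ly6a-201 and none of the 1023 of Ly6e-215 did so. In 50-base windows the shares were 36.7% for Ly6c1-201, 8.05% for Ly6a-201 and 0 of 1073 for Ly6e-215. Reads of Ly6c1 and Ly6c2 may thus have been divided between the copies in a way that the sources used here do not describe, and the 2 genes' values are uncertain for that reason.

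Limch1 itself was at 0.25, 0.15 and 0.1 FPKM (fragments scaled by transcript length and by library size) in Vector replicates 1 to 3 and at 23.96, 23.31 and 25.69 FPKM in Limch1_OE replicates 1 to 3, as the labels say. The listed values of a library summed to between 414837 and 425064 FPKM, and between 11621 and 11860 genes reached 1 FPKM. Sequencing depth is unknown, because the table holds no counts. Protein-coding mRNAs of the mitochondrial genome held between 4.39 and 5.10% of FPKM in Vector and between 5.89 and 8.20% in Limch1_OE, where replicate 1 was the highest. The part of this difference in any result below was not tested. The 8 epithelial marker genes all passed the filter and summed to between 2005 and 2267 FPKM per library. In the test across all genes described below, 3 fell (37.5%, against 14.4% of all genes) and 1 rose (12.5%, against 20.2%). The tight junction gene Cldn7 fell from 24.3 ± 0.93 to 7.14 ± 1.15 FPKM (SD, n = 3 each; log2 difference -1.65, limma adjusted p = 4.77e-06), and Epcam (-0.44) and the E-cadherin gene Cdh1 (-0.18) fell by less, while the keratin gene Krt7 rose (0.37). Without Vector replicate 3 Cdh1 was not called (limma adjusted p = 0.0548). The part of these markers in the values of the Ly6 genes was not tested.

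Of the 6 genes, Ly6e and Ly6a were abundant in Vector and far lower in Limch1_OE, Ly6c1 was low in Vector and near 0 in Limch1_OE, and Ly6c2 was near 0 in both groups. No transcript of Ly6d or Ly6k was analysed here. Ly6e (ENSMUSG00000022587, chromosome 15, 74955051 to 74959905, plus strand) stood at 910.65, 953.60 and 922.90 FPKM in Vector replicates 1 to 3 and at 53.15, 57.01 and 62.17 FPKM in Limch1_OE replicates 1 to 3. The groups did not overlap, and the lowest Vector library was 14.6-fold above the highest Limch1_OE library. Ly6e held 94.5 to 95.0% of the summed FPKM of the 4 genes with a listed transcript in Vector and 97.9 to 98.2% in Limch1_OE. Among 11842 genes that passed the filter on low values (at least 1 FPKM in at least 3 libraries), its mean level ranked 47th from the top in Vector and 1165th in Limch1_OE. Because these are bulk samples, fewer cells expressing a gene and less RNA per cell cannot be told apart.

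Ly6a (ENSMUSG00000075602, chromosome 15, 74994877 to 74998031, minus strand), the Sca-1 gene, stood at 50.93, 48.53 and 46.78 FPKM in Vector and at 1, 1.03 and 1.25 FPKM in Limch1_OE, again without overlap. Its mean was 48.7 ± 2.08 FPKM in Vector and 1.09 ± 0.137 FPKM in Limch1_OE (SD, n = 3 each), a ratio of 44.6. The ratio of the Ly6e means, 929 ± 22.1 to 57.4 ± 4.53 FPKM (SD, n = 3 each), was 16.2. Taking every pair of a Vector and a Limch1_OE library, the ratio lay between 37.4 and 50.9 for Ly6a and between 14.6 and 17.9 for Ly6e, so the proportional difference was the greater for Ly6a in each pair. The level of Ly6a ranked 1513th in Vector and 11602nd in Limch1_OE.

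Ly6c1 (ENSMUSG00000079018, chromosome 15, 75044018 to 75048830, minus strand) stood at 2.57, 1.45 and 1.57 FPKM in Vector and at 0, 0.06 and 0.07 FPKM in Limch1_OE. Vector replicate 1 was the highest, and no Limch1_OE library reached 0.1 FPKM. Since the table prints 2 decimals, the Limch1_OE values carry at most 1 digit, and a ratio against them would have little meaning. Ly6c2 (ENSMUSG00000022584, chromosome 15, 75108158 to 75111970, minus strand) was listed at 0, 0.30 and 0 FPKM in Vector and at 0, 0.06 and 0 FPKM in Limch1_OE. It did not pass the filter, and its groups overlapped. The Vector value of Ly6c2 lay in replicate 2, the library in which a second transcript of Ly6c1, Ly6c1-203, was also listed at 0.30 FPKM.

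On the log2(FPKM + 1) scale the differences, Limch1_OE minus Vector, were -3.99 (SE 0.06) for Ly6e, -4.57 (SE 0.07) for Ly6a and -1.44 (SE 0.15) for Ly6c1. Only 3 of the 11842 genes had a lower value than Ly6a, 9 had a lower value than Ly6e and 130 a lower value than Ly6c1. These values are a description without a test, because the genes were picked with this contrast known. The 3 genes that passed the filter had no overlap between groups and were lower in Limch1_OE, which held for 20.5% of all 11842 genes, but Ly6c1 passed the filter through its Vector libraries alone and nothing is read from the count. By limma, 34.6% of all 11842 genes passed the test, 14.4% as lower and 20.2% as higher. The added 1 in the logarithm shrinks the difference of low genes. With 0.1 in its place Ly6c1 stood at -3.77 and Ly6a at -5.36.

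**Figure D1:**
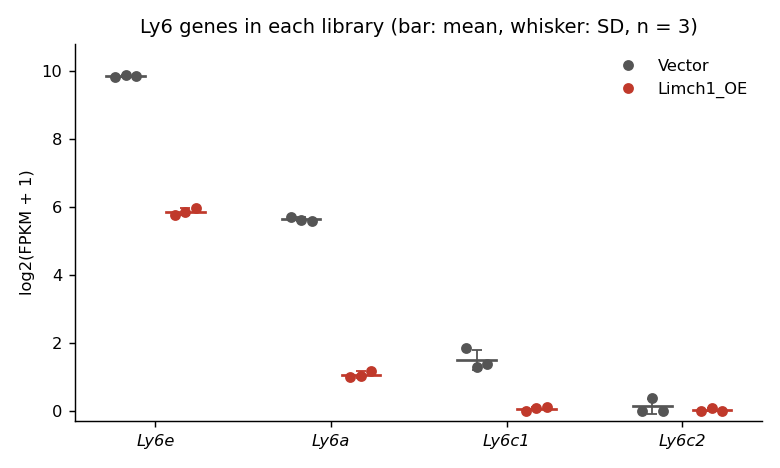
Level of the 4 Ly6 genes with a listed transcript, as log2(FPKM + 1), in each Vector library (grey) and Limch1_OE library (red); points are libraries, bars are means and whiskers are SD (n = 3). Ly6e and Ly6a are high in every Vector library and lower in every Limch1_OE library, Ly6c1 is low in Vector and near 0 in Limch1_OE, and Ly6c2 overlaps between the groups.

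The table is by transcript, and the Ly6a transcripts behaved unlike their sum. Ly6a-201 stood at 48.99 and 39.40 FPKM in Vector replicates 1 and 2 but at 2.32 FPKM in replicate 3, where Ly6a-205 stood at 42.51 FPKM. In Vector replicates 1 and 2, Ly6a-205 was listed at 0 and 0.01 FPKM. As shares of the gene, Ly6a-201 held 96.2, 81.2 and 4.96% in the Vector libraries and Ly6a-205 held 90.9% in replicate 3. Another transcript, Ly6a-204, held 18.6% in Vector replicate 2. Over the Vector libraries the coefficient of variation was 81.5% for Ly6a-201 and 4.27% for the sum of Ly6a.

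Ly6a-201 has 3 exons and Ly6a-204 and Ly6a-205 have 4, but all 3 carry the same coding sequence of 402 bases, so the Vector libraries that differ in the leading transcript do not differ in the coding sequence it carries. The leading transcript also changed within Limch1_OE, at far lower values. Ly6a-201 held 93.0 and 99.0% in Limch1_OE replicates 1 and 2 and 42.4% in replicate 3, where Ly6a-204 held 56.8% (0.53 and 0.71 FPKM). These changes fall within the groups and do not separate Vector from Limch1_OE. Whether they reflect the use of another first exon or the assignment of reads to overlapping transcripts was not tested. They matter for the size of the difference. With the most abundant transcript, Ly6a-201, in place of the sum, the log2 difference of Ly6a was -3.38 with an SE of 1.04. Ly6a-202, also annotated with that coding sequence, was listed at 0 in every library.

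Ly6e had 16 listed transcripts, of which 15 reached 1 FPKM in some library and 14 of those did not overlap between the groups. Some, such as Ly6e-214, reached 1 FPKM in Vector only, and the share over all transcripts was not computed, so nothing is read from this count. The leading one, Ly6e-215, was at 402.40, 423.93 and 427.88 FPKM in Vector and at 24.99, 24.02 and 25.34 FPKM in Limch1_OE, between 44.2 and 46.4% of the gene in Vector and between 40.8 and 47.0% in Limch1_OE. Next came Ly6e-209, annotated as a retained intron without a coding sequence, at 234.21, 236.26 and 225.70 FPKM in Vector and 9.15, 11.62 and 14.56 FPKM in Limch1_OE. Transcripts annotated as retained introns together held 27.3 to 28.4% of Ly6e in Vector and 19.7 to 31.2% in Limch1_OE, so these shares overlapped between the groups. Coding and retained-intron transcripts of Ly6e were thus both lower in Limch1_OE.

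The transcript that reached 1 FPKM and overlapped was Ly6e-212, listed at 68.87 FPKM in Vector replicate 2 and at 0.09 FPKM in the other two Vector libraries. In Limch1_OE it was at 0.12, 0.19 and 0.13 FPKM. Its annotated coding sequence has 353 bases, fewer than the 408 of Ly6e-215. Vector replicate 2 is also the library with the lowest value of Ly6e-201 in that group, at 57.95 FPKM against 93.84 and 98.25 FPKM. As for Ly6a, the sum of the gene was steadier, with a coefficient of variation of 2.38% in Vector.

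**Figure D2:**
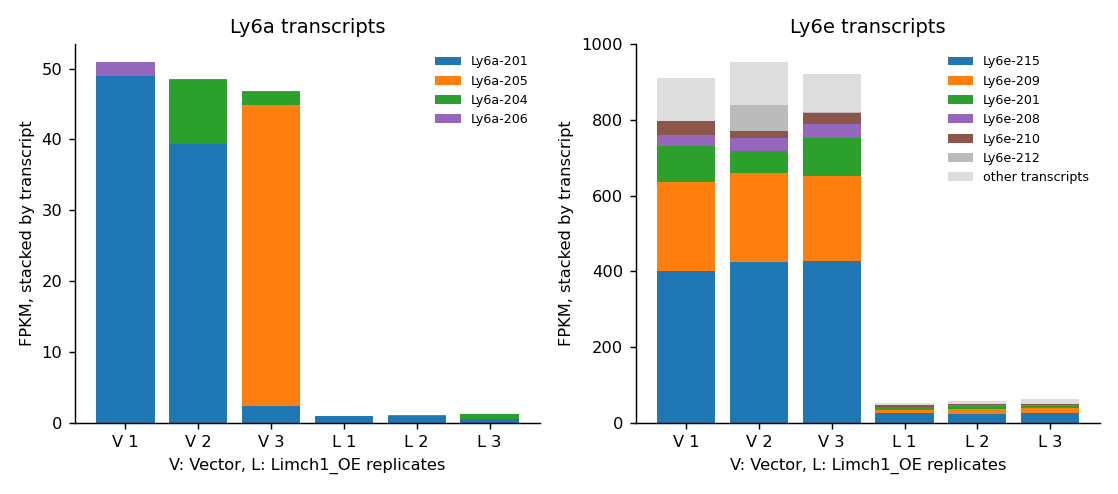
FPKM of Ly6a (left) and Ly6e (right), stacked by transcript, in Vector (V) and Limch1_OE (L) replicates 1 to 3; the 2 vertical axes differ. The leading Ly6a transcript is Ly6a-201 in Vector replicates 1 and 2 and Ly6a-205 in replicate 3 at nearly the same total. In Limch1_OE, at totals between 1 and 1.25 FPKM, it is Ly6a-201 in replicates 1 and 2 and Ly6a-204 in replicate 3. Ly6e-215 and Ly6e-209 lead Ly6e in every library.

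The genes whose profile over the 6 libraries was most like each of the 3 Ly6 genes were found by the smallest Euclidean distance between centred log2(FPKM + 1) values. For Ly6e they were the interferon regulatory factor gene Irf7 (distance 0.204), the GTPase gene Iigp1 (0.235) and Oas2 (0.253), which encodes a sensor of double-stranded RNA. Their log2 differences were -3.97, -3.89 and -4.09, beside -3.99 for Ly6e. For Ly6a they were Usp18 (0.291), which removes the ubiquitin-like protein ISG15, Ifit3 (0.312), an antiviral gene, and Cmpk2 (0.338), a nucleotide kinase gene, with log2 differences of -4.37, -4.62 and -4.37. All 6 are known as interferon-induced genes. These 6 were picked by their likeness to Ly6e and Ly6a in the same libraries. The share of interferon-induced genes among other genes that fell as far was not computed, so nothing is read from this count. The class I histocompatibility gene H2-Q2 (0.247), Gm45418 (0.250) and AA467197 (0.281) were nearest to Ly6c1, with log2 differences of -1.29, -1.51 and -1.38. With 2 groups of 3 libraries, such a distance mostly measures how alike the group differences are on this scale. The added 1 shrinks the differences of low genes, so genes at a small distance can differ in the ratio of their means. Mean FPKM went from 18.13 in Vector to 0.29 in Limch1_OE for Iigp1, beside 929 to 57.4 for Ly6e. For AA467197 it went from 6.397 to 1.837, beside 1.86 to 0.0433 for Ly6c1. The ratio of Irf7 (292 to 17.72) was nearer to that of Ly6e. No gene of chromosome 15 was among the 9 nearest genes. Only 461 of the 11842 tested genes lie on that chromosome outside the members, so nothing is read from this absence.

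Other genes of the chromosome 15 cluster were next considered, to show whether the levels of the members extend to their neighbours. Of 20 further cluster symbols 7 had a listed transcript, namely Psca, Slurp2, Lynx1, Ly6i, 2010109I03Rik, 9030619P08Rik and BC025446. All 7 were below 1 FPKM in each library, so none was tested. Ly6i, which lies between Ly6e and Ly6a, was listed at 0.19 FPKM in Vector replicate 1 and at 0 in the other libraries. Lynx1, a neuronal modulator of nicotinic receptors, was at 0.14, 0.21 and 0.16 FPKM in Vector and 0.15, 0.20 and 0.26 FPKM in Limch1_OE, which overlap. 2010109I03Rik, which lies within the span of the members, was at 0.08, 0.08 and 0.07 FPKM in Vector. In each Limch1_OE library it was listed at 0, so its groups did not overlap, but at values near 0. Without the filter on low values, 1 gene of this list was called lower, beside 1344 of all 25641 genes tested in that setting. Nothing is read from this count, since the values of the list are near 0. The highest value of the 7 was 0.52 FPKM, for 9030619P08Rik in Vector replicate 2.

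The genes around the cluster were at most modestly different. Between 73762056 and 76111970, which is the span of the members and 1 Mb on either side, 47 further protein-coding genes are annotated and 15 were tested by limma across all genes with Benjamini-Hochberg adjustment and a threshold of 0.05. Of these, 4 fell (26.7%, against 14.4% of all genes), 1 rose (6.67%, against 20.2%) and 10 did not pass. Their median log2 difference was -0.08, and that of all tested genes was 0.04. The nearest tested gene on one side of the members, Them6, lay 37.4 kb away with a log2 difference of -0.00 (SE 0.09, limma adjusted p = 0.973). On the other side Zfp41 lay 505 kb away with 0.01 (SE 0.10, limma adjusted p = 0.965).

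The flanking genes that fell lay between 750.4 and 989.5 kb from the span of the members, and no tested flanking gene lay inside it. They included Gsdmd, the gene of the pyroptosis pore protein gasdermin D (-0.61, SE 0.07, limma adjusted p = 4.69e-04), and the epiplakin gene Eppk1 (-0.39). The others were Pycrl (-0.26), which encodes an enzyme of proline synthesis, and Fam83h (-0.25). The zinc finger gene Zfp707 rose by 0.26. Pycrl was no longer called without Vector replicate 1 or 3 (limma adjusted p between 0.0524 and 0.0643). Zfp707 kept its call only without Vector replicate 1, and lost it without each of the other 5 libraries (limma adjusted p between 0.0596 and 0.111), and with the most abundant transcript per gene it stood at -0.43. Over all of chromosome 15 outside the members, 57 of 461 tested genes fell (12.4%) and 94 rose (20.4%).

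**Figure D3:**
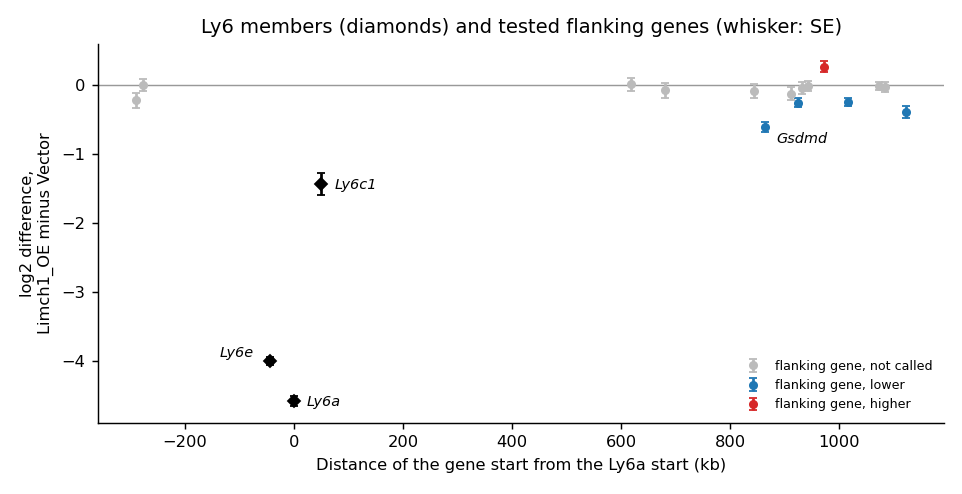
Log2 difference (Limch1_OE minus Vector, on log2(FPKM + 1)) of the 3 Ly6 genes that passed the filter (black diamonds, described without a test) and of the 15 tested protein-coding genes around them, against the distance of each gene's start from that of Ly6a in kb; whiskers are SE, blue and red mark genes that passed the test. The flanking genes lie between -0.61 and 0.26, and the Ly6 genes between -4.57 and -1.44.

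Relatives of the Ly6 family elsewhere in the genome were mostly silent in these cells, with 13 of 15 listed genes below 1 FPKM throughout. Both tested relatives fell, beside 14.4% of all tested genes, but 2 genes are too few for a share to be read. Plaur, the urokinase receptor, which anchors plasminogen activation to the cell surface, went from 73.4 ± 1.55 FPKM in Vector to 52.8 ± 2.85 FPKM in Limch1_OE (SD, n = 3 each; log2 difference -0.47, SE 0.05, limma adjusted p = 2.44e-04). Lypd3, the gene of the epithelial surface protein C4.4A, went from 8.01 ± 0.473 to 6.42 ± 0.602 FPKM (SD, n = 3 each; -0.28, SE 0.08, limma adjusted p = 0.0262). The call of Lypd3 ended without Vector replicate 1 or 3 and without Limch1_OE replicate 1 or 2 (limma adjusted p between 0.0604 and 0.0959).

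Genes that build, attach and remodel the GPI anchor, on which the Ly6 proteins depend, were next counted. Of 28 tested, 1 fell (3.57%, against 14.4% of all genes), 4 rose (14.3%, against 20.2%) and 23 did not pass, with a median log2 difference of 0.01 against 0.04 for all tested genes. The gene that fell was Pigt (-0.27, limma adjusted p = 0.00657), a subunit of the GPI transamidase. Those that rose were Pgap1 (0.62, limma adjusted p = 0.00347), which removes an acyl chain from the anchor, Pigyl (0.44), Pigc (0.37) and the mannosyltransferase gene Pigm (0.27). Pgap1 went from 1.02 ± 0.0961 to 2.11 ± 0.361 FPKM (SD, n = 3 each). Without Limch1_OE replicate 2 Pigc stood at an adjusted p of 0.0522 by limma, and Pigm lost its call without any library except Limch1_OE replicate 3 (limma adjusted p between 0.0739 and 0.103) and with the replicate number as a block.

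Among genes of other proteins with a GPI anchor, 4 of 18 tested fell (22.2%, against 14.4% of all genes), 3 rose (16.7%, against 20.2%) and 11 did not pass, shares near those of all genes, with a median log2 difference of 0.05. Bst2 (tetherin), an interferon-induced protein that holds budding viruses at the cell surface, was the lowest of these. It went from 575 ± 24.3 FPKM in Vector to 111 ± 14.0 FPKM in Limch1_OE (SD, n = 3 each; log2 difference -2.37, SE 0.08, limma adjusted p = 1.04e-07). Bst1 (-0.83, limma adjusted p = 5.42e-04), an ectoenzyme that makes cyclic ADP-ribose, fell as well, as did Cd14 (-0.28), a co-receptor for bacterial lipopolysaccharide, and Nt5e (-0.18), the ectonucleotidase CD73. The guidance molecule genes Rgma (0.71), Ntng2 (0.56) and Efna5 (0.21) rose. Cd24a, an abundant GPI-anchored surface antigen of mammary epithelium, was at 144 ± 5.43 FPKM in Vector and 147 ± 4.69 FPKM in Limch1_OE (SD, n = 3 each; log2 difference 0.03, SE 0.05, limma adjusted p = 0.703).

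Of these calls, those of Cd14, Nt5e and Efna5 did not hold when single libraries were left out. Cd14 lost its call without Vector replicate 1 or 2 and without Limch1_OE replicate 2 or 3 (limma adjusted p up to 0.0879). Nt5e lost it without each Vector library and without Limch1_OE replicate 3 (up to 0.0675). Efna5 lost it without any library except Limch1_OE replicate 3 (up to 0.133), and with the replicate number as a block.

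**Figure D4:**
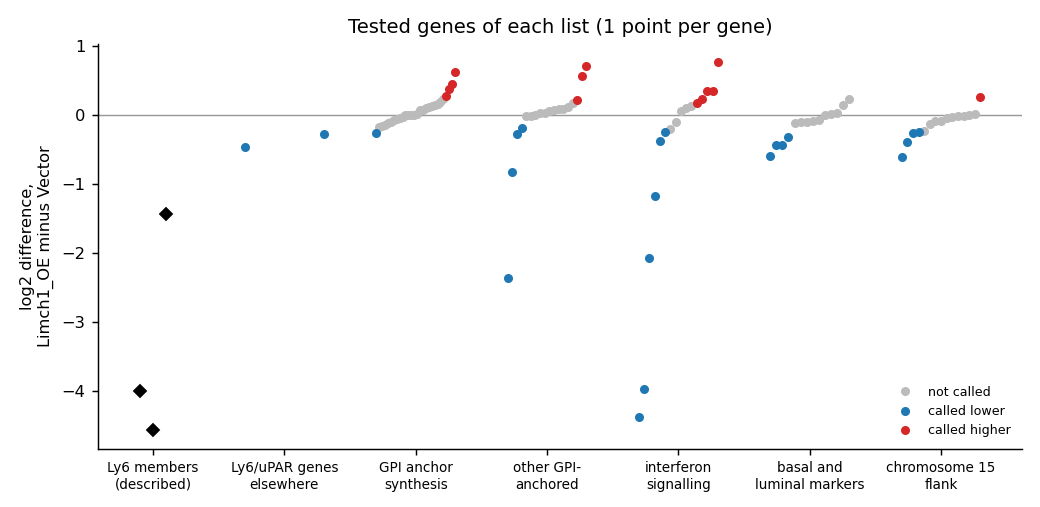
Log2 difference (Limch1_OE minus Vector, on log2(FPKM + 1)) of each tested gene, 1 point per gene, for the 3 Ly6 genes that passed the filter (black diamonds, described without a test) and 6 lists of genes; blue passed the test as lower, red as higher, grey did not pass. GPI anchor genes lie between -0.27 and 0.62, and the genes of the interferon signalling list between -4.37 and 0.76.

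Interferon signalling is the best known inducer of Ly6a and Ly6e, and its components are given for comparison. Type I interferon binds a receptor of Ifnar1 and Ifnar2 chains, whose kinases Jak1 and Tyk2 activate STAT transcription factors, which with Irf9 bind response elements in target genes. The list counted here is wider than this pathway and also holds the interferon-gamma receptor genes and further signalling genes. Of its 16 tested genes 6 fell (37.5%, against 14.4% of all genes), 5 rose (31.2%, against 20.2%) and 5 did not pass. Their median log2 difference was -0.03. The transcription factor genes Stat2 (-2.07) and Irf9 (-1.18) fell (limma adjusted p between 8.76e-09 and 3.19e-07), as did Irf7 (-3.97) and Usp18 (-4.37), which are themselves interferon targets. Stat2 went from 48.0 ± 0.965 to 10.7 ± 0.351 FPKM (SD, n = 3 each). Irf1 (-0.37) and Irf2 (-0.24) fell by less.

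On the receptor side Ifnar2 (0.76, limma adjusted p = 1.17e-04) and Ifnar1 (0.35) rose, as did the interferon-gamma receptor genes Ifngr1 (0.23) and Ifngr2 (0.17) and the transcription factor gene Irf3 (0.34). Jak1 (-0.11, SE 0.05, limma adjusted p = 0.116) and Tyk2 (0.09, SE 0.05, limma adjusted p = 0.198) did not pass. The smallest of these calls were the least stable: Ifngr2 lost its call without any single library (limma adjusted p between 0.0667 and 0.126), Irf2 without any library except Limch1_OE replicate 3 (up to 0.106), and Ifngr1 without Vector replicate 2 or 3 or Limch1_OE replicate 1 or 3 (up to 0.135). Ifngr2 and Irf2 were also not called with the replicate block, and Ifngr1 and Ifngr2 were not called under either other scaling of the libraries, so that 3 receptor and signalling genes in place of 5 rose there.

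Promoter sequences from RefSeq (GRCm38.p6, 250 bases before to 50 after a start) were found for 2 of the 6 members, Ly6c1 and Ly6c2, with 2 windows each. Entries for Ly6a, Ly6d, Ly6e and Ly6k were not found. Both strands were searched for the core of the interferon-stimulated response element, which is a pair of GAAA blocks with any 2 bases between them, and for the gamma-activated site, TTCNNNGAA, which reads the same on either strand. Matches of the 2 motifs were allowed to overlap. Neither motif occurred in the 4 windows. Of all 32851 promoter windows, 3.44% held the response element core and 8.30% the gamma-activated site. No match says only that these letters are not in these windows.

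Since Ly6a and Ly6d serve as markers of mammary cell states, basal and luminal genes were compared as well. Of 14 tested, 4 fell (28.6%, against 14.4% of all genes), none rose (against 20.2%) and 10 did not pass, with a median log2 difference of -0.09. Those that fell were the growth factor gene Areg (-0.59, limma adjusted p = 9.07e-04), the epithelial adhesion gene Epcam (-0.44, limma adjusted p = 2.44e-04), the hemidesmosome integrin gene Itgb4 (-0.44) and the estrogen receptor gene Esr1 (-0.31). The luminal keratin genes Krt8 (-0.09, SE 0.06, limma adjusted p = 0.318) and Krt18 (0.14, SE 0.06, limma adjusted p = 0.0931) and the basal keratin gene Krt14 (-0.11, SE 0.10, limma adjusted p = 0.409) did not pass. Esr1 was not called without Vector replicate 1 or 3 or Limch1_OE replicate 2 (limma adjusted p up to 0.0749).

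Ly6a, Ly6c1 and Ly6c2 are also used as surface markers of leukocytes and endothelium, so markers of those cells were examined in the same libraries. Of 18 leukocyte markers, 9 were listed and 8 of these stayed below 1 FPKM, among them Ptprc, the gene of the pan-leukocyte antigen CD45, at 0.01 FPKM or less. The remaining one, the lysosomal protein gene Cd68, was at 26.6 ± 2.73 FPKM in Vector and 33.1 ± 2.76 FPKM in Limch1_OE (SD, n = 3 each) and passed as higher (0.31, limma adjusted p = 0.0239). Without Vector replicate 3 or Limch1_OE replicate 2 or 3 Cd68 was not called (limma adjusted p up to 0.0856). The listed leukocyte markers summed to between 23.9 and 28.6 FPKM in Vector and between 30.2 and 35.7 FPKM in Limch1_OE.

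Endothelial markers were listed in 9 of 10 cases, 7 of them below 1 FPKM, and Pecam1 reached at most 0.13 FPKM. Eng, the gene of the TGF-beta co-receptor endoglin, was at 20.98 ± 1.22 FPKM in Vector and fell (-0.37, limma adjusted p = 0.00234), while Egfl7, at 5.63 ± 0.348 FPKM in Vector (SD, n = 3 each), did not pass (-0.14, limma adjusted p = 0.34). The endothelial sum was 25.3 to 28.0 FPKM in Vector and 20.6 to 21.9 FPKM in Limch1_OE. Of 10 fibroblast markers 7 were listed and 5 of these stayed below 1 FPKM, with Col1a1 at 0.07 FPKM or less. The matrix protein gene Postn rose from 6 ± 0.101 to 8.33 ± 0.662 FPKM (SD, n = 3 each; 0.41, limma adjusted p = 0.00318), but stood at -0.34 with the most abundant transcript per gene. The growth factor receptor gene Pdgfra, at 1.45 ± 0.151 FPKM in Vector (SD, n = 3), did not pass (0.23, limma adjusted p = 0.0881). Fibroblast markers summed to 7.69 to 7.94 FPKM in Vector and 9.67 to 10.7 FPKM in Limch1_OE. Whether 4T1 cells or other cells carried the RNA of these expressed markers, and their part in the values of the Ly6 genes, was not tested.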

How the data were processed

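RNA was sequenced from 3 Vector and 3 Limch1_OE libraries. The deposited values are FPKM per transcript, computed by the authors and printed to 2 decimals, for 77865 transcripts. The build mm10 and the tools StringTie 2.2.1, featureCounts 2.0.1, STAR 2.7.10 and fastp 0.23.2 come from the submitters' processing notes; which of them produced the FPKM, the annotation release, the strand setting and the treatment of multi-mapped reads were not given in the sources used here. Low values did not fall on whole reads (at most 39.8% lay within 0.15 of a whole read, against 30% without steps), so depth and counting error are unknown, and precision is the SD over 3 libraries. No 2 columns were identical.

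Transcripts were summed per gene and matched to GENCODE M21 (26033 of 26094 identifiers). limma 3.58.1 in R 4.3.3 (lmFit, eBayes with an intensity trend) was fitted to log2(FPKM + 1) of the 11842 genes that reached 1 FPKM in 3 or more libraries, two-sided, Benjamini-Hochberg adjusted, threshold 0.05. The fit was tested on simulated data. Coding sequences were aligned with Biopython 1.88.

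The members, gene lists and motifs were chosen with earlier results of these data known. The members are described without a test, and 1 gene of the lists is not reported here. Named genes are the members, tested genes of the lists, cell type markers chosen after their values were seen, called flanking genes and the nearest tested ones on each side (the latter chosen after their values were seen), and the 3 closest profiles per member that passed the filter. Alternatives changed the pseudocount, filter, variance model, scaling, summary per gene, replicate block and the libraries included. Groups and replicate numbers come from the titles, because the cell line and genotype fields count upward from sample to sample. The numbers did not pair the libraries: deviations of same-numbered libraries correlated at -0.00, 0.05 and 0.06.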

Additional observations from a re-analysis of the deposited data

How the results depend on the processing

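Under 15 alternatives (14 for Ly6c1, which did not reach 5 FPKM) the log2 difference stayed between -4.05 and -3.94 for Ly6e, between -5.36 and -3.38 for Ly6a and between -3.77 and -1.27 for Ly6c1. Calls over all genes numbered 4094 (1706 lower, 2388 higher). With the most abundant transcript per gene they numbered 1996 (999 lower, 997 higher), and the cause was not tested. Leaving out 1 library gave 2882 to 3778 calls (1285 to 1553 lower, 1597 to 2225 higher). Of the calls, 41.7% were lower, and 53.1% with the trimmed mean of M values. Under the replicate block 3808 genes were called (1589 lower, 2219 higher); libraries did not each correlate best with their own number. Of 330 list counts under alternatives, 284 stayed within 1.5 times the reported count. Counts of 0 that stayed at 0 are included, among them those of the cluster list, which had no tested gene. The share therefore says little about how stable the list results are. Of 48 named genes called, 25 were called in each alternative that tested them.

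With the trimmed mean of M values Cd24a stood at -0.017 and Zfp41 at -0.024, and Zfp41 stood at -0.065 with quantile normalization and -0.064 with the most abundant transcript. Without single libraries Them6 lay between -0.051 and 0.024 and Zfp41 between -0.064 and 0.052. With the most abundant transcript Zfp707 stood at -0.43 (limma adjusted p = 0.613), Postn at -0.34 (limma adjusted p = 0.508), and Cd14, Cd68, Efna5, Eng, Fam83h, Ifngr1, Ifngr2, Irf2, Irf3, Itgb4, Krt7, Lypd3, Nt5e, Ntng2, Pigc, Pigm, Pigyl, Pycrl and Rgma lost their calls. The trimmed mean of M values ended the calls of Efna5, Ifngr1, Ifngr2, Pigm and Zfp707, and dropping the filter those of Cd14, Cd68, Efna5, Esr1, Ifngr1, Irf2, Lypd3, Pigc, Pigm, Pigyl, Pycrl and Zfp707. Depth is unknown, so the counting error of the low values of Ly6c1 and Ly6c2 could not be given.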
